A study of Arabidopsis thaliana with 6 samples.

Results

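The transcripts described are those of 33 nuclear genes for the Calvin cycle and photorespiration of Arabidopsis thaliana, taken by gene ID from the 33323 genes listed. They comprise 21 genes of the Calvin cycle and 12 of photorespiration, chosen by pathway. Poly(A) RNA came from seedlings, 5 days old, of the wild type (WT) and of the mutant that the labels name hid1 (hidden treasure 1), with 3 biological replicates of each genotype. All seedlings were grown in cR, the usual abbreviation for continuous red light. HID1, a long noncoding RNA, is known to favour photomorphogenesis, the light-driven form of seedling growth. The labels state neither the kind of hid1 mutation nor the organs that made up a sample.

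The Calvin cycle fixes carbon dioxide in the chloroplast stroma. Rubisco joins carbon dioxide to a sugar phosphate, the product is reduced to triose phosphate with ATP and NADPH from the light reactions, and most of that triose phosphate is spent on regenerating the acceptor. Rubisco also reacts with oxygen, and photorespiration recovers the resulting 2-phosphoglycolate by a route through chloroplast, peroxisome and mitochondrion that releases carbon dioxide and ammonia. Nuclear genes of both pathways are known to be induced by light during seedling greening. The large subunit of rubisco is encoded in the chloroplast and was not analysed here.

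Of the 33 transcripts, 1 rose in hid1 (AGT1), 2 fell (CFBP1 and PGLP1) and 30 did not pass the test. A transcript was called changed at an adjusted p of 0.05 or lower in limma, with Benjamini-Hochberg adjustment over all 18871 genes tested. By that rule 13.6% of all genes tested were called, 9.41% higher and 4.21% lower in hid1, against 9.09% of the 33. Over all genes that was 1775 higher and 794 lower, a split that moved to 1305 and 1343 with quantile normalization, 1333 and 1236 with median-ratio scaling, 1336 and 1232 with trimmed-mean scaling, and 1424 and 1143 with the length trend removed. Of the 33, median-ratio and trimmed-mean scaling and removal of the length trend each gave 0 higher and 4 lower. None of the 33 differed by more than 2-fold. For each of the 30 uncalled transcripts the 95% interval of the fold change lay within 2-fold in either direction, and for 21 of them it lay within 1.5-fold. The median log2 fold change (of RPKM + 1, hid1 minus WT) was -0.065 over the 33 and 0.07 over all genes tested. It was -0.19 over the 21 Calvin cycle genes, 15 of them below 0. That median was -0.083 without WT replicate 2, -0.127 without hid1 replicate 1, -0.1 without hid1 replicate 3, -0.072 with quantile normalization and -0.269 with median-ratio scaling. Over the 12 photorespiration genes it was 0.05, with 6 below 0, and it had no stable sign: it was -0.036 with median-ratio scaling, and -0.03 (without WT replicate 3) to 0.114 (without WT replicate 2) with 1 library left out. WT and hid1 libraries were fully separated for 9 of the 33, against 34.6% of all genes tested. The 3 hid1 libraries all lay below the 3 WT libraries for 7 of the 33 (21.2%, against 11.4% of all genes tested) and all above them for 2 (6.06%, against 23.1%). Leaving out 1 library changed the calls: none of the 33 was called without WT replicate 2, only AGT1 without hid1 replicate 1 and only CFBP1 without hid1 replicate 3.

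**Figure D1:**
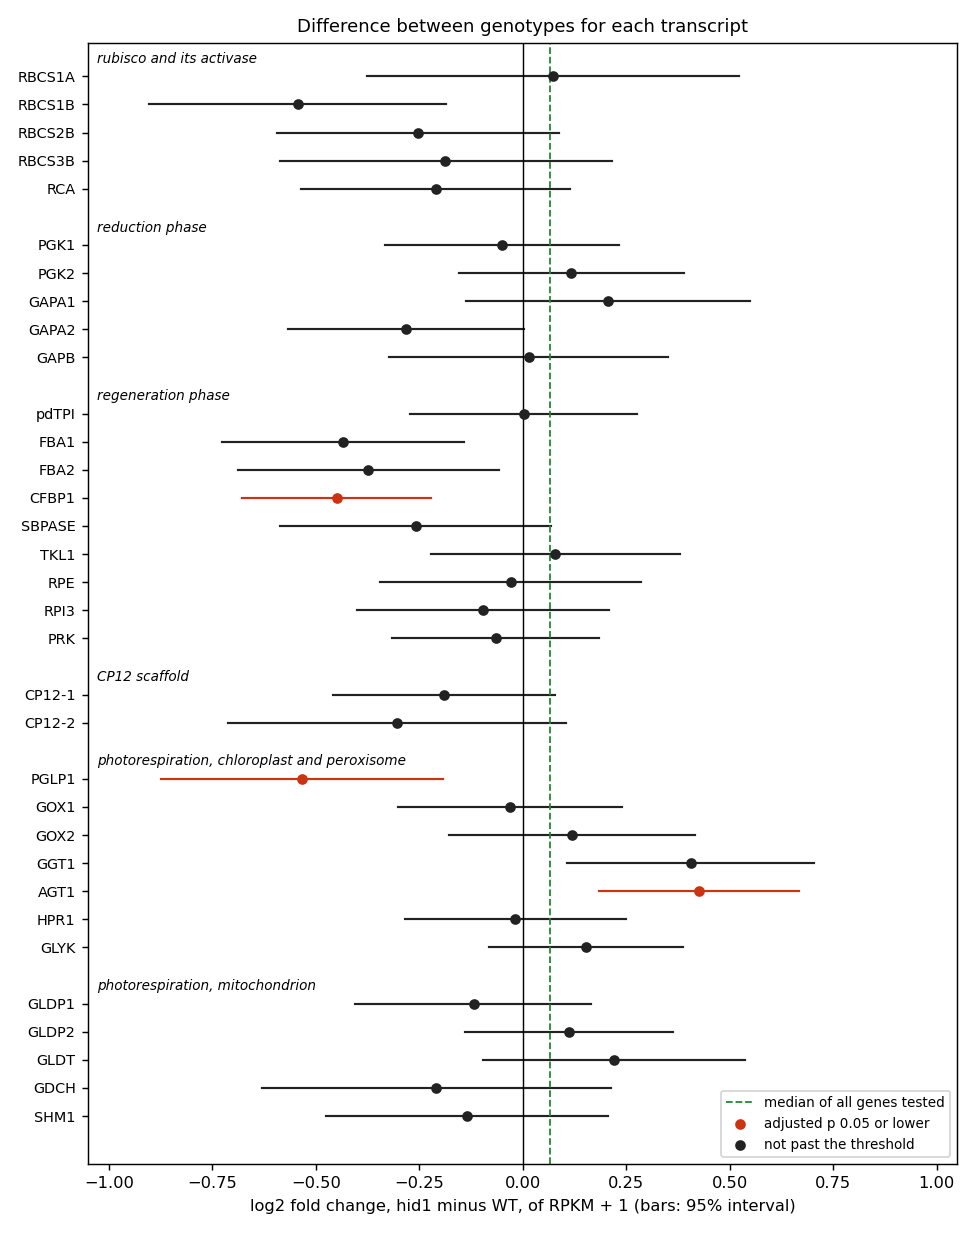
Log2 fold change (hid1 minus WT, of RPKM + 1) of each of the 33 transcripts on the horizontal axis, with its 95% interval as a bar, grouped by role; the dashed line is the median of all genes tested. The points lie between -0.54 (RBCS1B) and 0.43 (AGT1), and the 3 past the threshold are AGT1 above 0 and CFBP1 and PGLP1 below it.

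All 33 transcripts were abundant. Levels are the authors' RPKM, in which reads are divided by gene length and library depth, so that they can be compared between genes. The means over the 6 libraries ran from 129 RPKM for PGK2 to 20317 RPKM for RBCS1A, and ranked from the second to position 803 among all genes. Together the 33 made up 6.61% to 8.46% of the RPKM summed over a library. Depth was about 17.0 to 25.7 M reads per library, estimated from the smallest steps of the values, and at that depth the value with the fewest reads, of the short gene CP12-2, stood for about 2253 reads, a counting error of about 2.1%. The SD between libraries of a genotype was larger, with a median of 11.3% of the mean and a range from 3.18% (CFBP1 in hid1) to 24.9% (GDCH in WT).

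**Figure D2:**
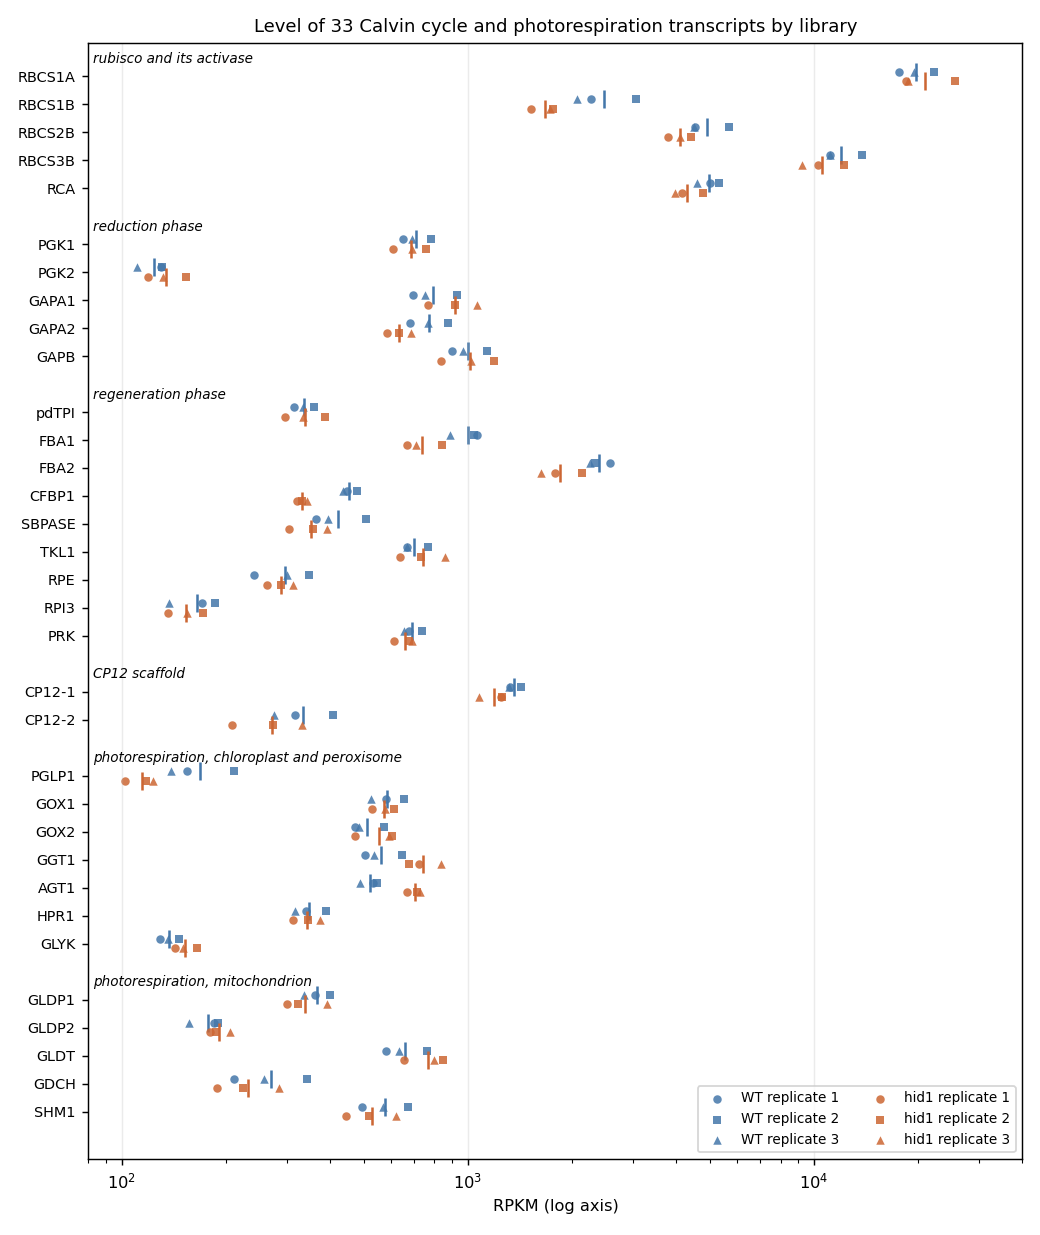
RPKM of each transcript in each library on a log axis, by role, with WT in blue, hid1 in orange, a marker shape for each replicate number and a vertical bar at the mean of a genotype. RBCS1A, RBCS3B, RCA and RBCS2B are the 4 highest, and the genotypes' points overlap for most transcripts.

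Rubisco has 4 nuclear genes for its small subunit, RBCS1A on chromosome 1 (25048158 to 25049667, TAIR10.1 annotation) and RBCS1B, RBCS2B and RBCS3B side by side on chromosome 5 (15376988 to 15385320). The coding sequences of the 3 neighbours were 96.7% to 97.3% identical to each other and 90.4% to 90.6% identical to RBCS1A, so reads may have been split between copies and the value of a single copy is uncertain. RBCS1A was the highest of the 33. Its level was 17578, 22173 and 19450 RPKM in WT replicates 1, 2 and 3, and 18490 (replicate 1), 25509 (replicate 2) and 18703 (replicate 3) in hid1. The libraries of the genotypes were interleaved, and the log2 fold change was 0.07 (SE 0.20, adjusted p = 0.845). RBCS1B, the lowest of the 4, was at 2271, 3052 and 2069.7 RPKM in WT and 1516, 1766 and 1726 in hid1. All 3 hid1 libraries lay below WT, but the difference (log2 fold change -0.54, SE 0.16) missed the threshold at an adjusted p of 0.0503. The log2 fold change of RBCS1B was -0.38 without WT replicate 2, the highest WT library. It passed under 5 of the 14 other settings, among them median-ratio scaling (adjusted p = 0.043) and a pseudocount of 5 (0.0463).

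RBCS2B stood at 4913 ± 674 RPKM in WT and 4104 ± 310.1 in hid1 (mean ± SD, n = 3 libraries per genotype throughout), with every hid1 library below every WT library (adjusted p = 0.30). RBCS3B stood at 11995 ± 1541 and 10553 ± 1498 (adjusted p = 0.531), and its libraries overlapped. RCA, rubisco activase, which frees blocked active sites of rubisco, stood at 4965 ± 367 and 4297 ± 425 (adjusted p = 0.369). Under quantile normalization the log2 fold changes of RBCS3B and RCA, -0.19 and -0.21 otherwise, turned to 0.27 and 0.08.

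The 4 RBCS genes differ in the letters known as the light-responsive elements of this family, the I-box (GATAAG) and the G-box (CACGTG). The stretches are shown because RBCS1B, unlike the other 3 copies, had no CACGTG within 500 bases before its start codon. That contrast holds for this window only. In the 250 bases before the gene start, RBCS2B alone of the 4 had CACGTG. Capitals mark the G-box in the first 3 and the I-box in RBCS1B, and each stretch is written 5′ to 3′ on the gene's strand from the TAIR10.1 genome.
RBCS1A (chr1:25049491-25049520, minus strand): ggaattatcttcCACGTGgcattattccag
RBCS2B (chr5:15382177-15382206, minus strand): ggagttttctgcCACGTGatcttatcctag
RBCS3B (chr5:15378506-15378535, minus strand): ggagttttctgcCACGTGgccttatcctag
RBCS1B (chr5:15385308-15385337, minus strand): tcacaaaagaaaGATAAGataagggtgtca
The G-box began 259 bases before the start codon in RBCS1A, 216 in RBCS2B and 217 in RBCS3B. An I-box lay on both sides of it in these 3 genes, at 283 and 230 bases in RBCS1A, 239 and 187 in RBCS2B, and 240 and 188 in RBCS3B. A further I-box lay on the opposite strand at 208 bases in RBCS2B and 209 in RBCS3B. RBCS1B had I-boxes at 170 and 165 bases, which overlap each other. These are matches of letters and were not tested for binding.

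The reduction phase is run by phosphoglycerate kinase (PGK1, PGK2) and by the chloroplast glyceraldehyde-3-phosphate dehydrogenase (subunits GAPA1, GAPA2 and GAPB). None of these 5 transcripts passed the test and their median log2 fold change was 0.01 (-0.07 with median-ratio or trimmed-mean scaling). GAPB, the highest, was at 897, 1132 and 967 RPKM in WT and 837, 1186 and 1019 in hid1, fully interleaved (adjusted p = 0.962). GAPA2 came nearest to the threshold, at 679.8, 874 and 766 RPKM in WT and 583, 631 and 686 in hid1. Of its hid1 libraries only replicate 3 reached the WT range (log2 fold change -0.28, SE 0.13, adjusted p = 0.17). GAPA1, which encodes the same subunit, stood at 792 ± 124 and 914 ± 145.5 RPKM (adjusted p = 0.406). PGK1 stood at 707 ± 68.6 and 684 ± 74.0 RPKM, and PGK2 at 124 ± 11.1 and 134 ± 17.0, with adjusted p of 0.832 and 0.564.

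In the regeneration phase, CFBP1 fell and the other 8 transcripts did not pass. CFBP1 (AT3G54050, annotated as HCEF1, chromosome 3, 20016837 to 20018822) encodes the chloroplast fructose-1,6-bisphosphatase, a light-activated enzyme that commits triose phosphate to regeneration and starch. Its level was 446, 476 and 435 RPKM in WT and 321, 331 and 342 in hid1. The lowest WT library lay above the highest hid1 library, and the fold change was 0.732 (95% interval 0.625 to 0.857, log2 -0.45, SE 0.10, limma adjusted p = 0.0169). Its log2 fold change lay between -0.53 and -0.40 over the 14 other settings tried. The call was lost without WT replicate 2 (adjusted p = 0.0694) and without hid1 replicate 1 (0.0508), and its adjusted p was 0.00641 to 0.0499 in the other 12. The 250 bases before its gene start are shown because CFBP1 is the Calvin cycle gene that passed. Capitals mark the G-box, the I-box on either strand and CCAAT.
CFBP1 (chr3:20016587-20016836, plus strand): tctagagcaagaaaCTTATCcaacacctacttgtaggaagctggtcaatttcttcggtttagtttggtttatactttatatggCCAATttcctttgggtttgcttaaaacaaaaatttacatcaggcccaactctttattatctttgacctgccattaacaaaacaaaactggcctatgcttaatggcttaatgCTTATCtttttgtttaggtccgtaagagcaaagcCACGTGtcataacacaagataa

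The 2 chloroplast aldolases, which join triose phosphates, came next to CFBP1 in their values. FBA1 was at 1065, 1037 and 889 RPKM in WT and 668, 839.7 and 708 in hid1, without overlap (log2 fold change -0.43, SE 0.13, adjusted p = 0.0532). FBA2, the highest of this phase, was at 2564, 2329 and 2256 RPKM in WT and 1789.9, 2137 and 1622 in hid1, also without overlap (-0.37, SE 0.14, adjusted p = 0.109). FBA1 passed under 6 of the 14 other settings, among them median-ratio scaling (adjusted p = 0.0471), and FBA2 under 1 of them, the replicate block (0.0416). SBPASE, sedoheptulose-bisphosphatase, another light-activated phosphatase of the cycle, stood at 422 ± 75.0 RPKM in WT and 351 ± 43.9 in hid1 (adjusted p = 0.266).

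The remaining 5 transcripts of regeneration differed by less than the spread between libraries. TKL1, transketolase, stood at 699.7 ± 57.7 RPKM in WT and 743 ± 113 in hid1, and PRK, phosphoribulokinase, which makes the carbon dioxide acceptor, at 689 ± 43.6 and 658.5 ± 41.2. The plastid triose phosphate isomerase pdTPI stood at 336 ± 22.9 and 338 ± 45.5, the epimerase RPE at 296 ± 53.1 and 287.5 ± 25.2, and the isomerase RPI3 at 165 ± 25.2 and 153.5 ± 17.7. Their adjusted p ran from 0.686 (RPI3) to 0.993 (pdTPI).

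CP12 proteins tie GAPDH and phosphoribulokinase into an inactive complex in the dark. CP12-1 was at 1324, 1423 and 1318 RPKM in WT and 1245, 1251 and 1073 in hid1, so that all hid1 libraries lay below WT by a small margin (log2 fold change -0.19, SE 0.12, adjusted p = 0.327). CP12-2 was at 317, 407 and 275 RPKM in WT and 208, 273 and 332 in hid1, with hid1 replicate 3 above 2 of the WT libraries (adjusted p = 0.302). The third gene of the family, CP12-3, which is not among the 33, did pass. It was at 13.9, 10.6 and 11.7 RPKM in WT and 27.1, 33.04 and 22.7 in hid1, a rise of 2.18-fold (95% interval 1.72 to 2.76, log2 1.12, SE 0.15, adjusted p = 0.00103), and the call held in all 14 other settings.

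Photorespiration begins in the chloroplast with PGLP1, the phosphatase that removes phosphate from 2-phosphoglycolate. PGLP1 (AT5G36700, chromosome 5, 14421182 to 14424610) was at 154, 211 and 139 RPKM in WT and 101.9, 117 and 123 in hid1. All hid1 libraries lay below WT, and the fold change was 0.69 (95% interval 0.545 to 0.874, log2 -0.53, SE 0.15, limma adjusted p = 0.0434). WT replicate 2 stood well above the other WT libraries, and without it the log2 fold change was -0.36 (adjusted p = 0.128). The call was also lost without hid1 replicate 1, 2 or 3 (0.126, 0.102 and 0.0865) and with no filter on low values (0.108). A second gene, AT5G36790, has the same 1089 coding bases at 100% identity. It was listed at 0.31 RPKM in WT replicate 1 and at 0 in the other 5 libraries, so the PGLP1 value may hold the reads of both copies.

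Glycolate then passes to the peroxisome, where glycolate oxidase makes glyoxylate and aminotransferases turn it into glycine. AGT1 (AT2G13360, annotated as AGT, chromosome 2, 5538740 to 5541479) is the serine:glyoxylate aminotransferase, also known to use asparagine. Its level was 531, 547 and 487 RPKM in WT and 668, 709.9 and 724 in hid1. The hid1 libraries all lay above WT, and the rise was 1.34-fold (95% interval 1.14 to 1.59, log2 0.43, SE 0.11, limma adjusted p = 0.0272). The call was lost in 8 of the 14 other settings: without WT replicate 2 or 3 (adjusted p = 0.0598 and 0.121), without hid1 replicate 2 or 3 (0.0718 and 0.0779), with no filter on low values (0.0516), with median-ratio scaling (0.0692), with trimmed-mean scaling (0.069) and with the length trend removed (0.0562). Its log2 fold change was 0.34 or more in each of them.

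GGT1, the glutamate:glyoxylate aminotransferase and the highest of this group, moved as AGT1 did in its values. It was at 504, 646 and 535 RPKM in WT and 719.8, 675 and 835 in hid1, again with all hid1 libraries above WT (log2 fold change 0.41, SE 0.13), and it missed the threshold (adjusted p = 0.0716). These 2 aminotransferases were the only ones of the 33 with every hid1 library above every WT library. The promoter windows of PGLP1 and AGT1, the photorespiration genes that passed, are shown for comparison with CFBP1; neither holds the G-box, the I-box, the clock-related evening element (AAATATCT) or the CCAAT box on either strand in these 250 bases, so they have no capitals.
PGLP1 (chr5:14424611-14424860, minus strand): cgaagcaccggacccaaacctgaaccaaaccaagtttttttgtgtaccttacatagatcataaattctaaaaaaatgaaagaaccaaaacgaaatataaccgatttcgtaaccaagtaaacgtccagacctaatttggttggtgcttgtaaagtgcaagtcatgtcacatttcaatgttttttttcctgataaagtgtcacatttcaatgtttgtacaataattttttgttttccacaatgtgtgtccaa
AGT1 (chr2:5541480-5541729, minus strand): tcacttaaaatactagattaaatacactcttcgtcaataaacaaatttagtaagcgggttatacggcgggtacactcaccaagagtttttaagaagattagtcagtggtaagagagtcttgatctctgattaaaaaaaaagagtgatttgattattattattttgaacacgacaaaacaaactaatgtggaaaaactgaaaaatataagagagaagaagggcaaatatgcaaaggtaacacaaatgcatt

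The other peroxisomal and chloroplast transcripts did not pass. The glycolate oxidases GOX1 and GOX2, neighbours on chromosome 3 with coding sequences 92.4% identical, stood at 584.5 ± 64.8 and 509 ± 54.1 RPKM in WT and at 570.5 ± 41.3 and 554 ± 73.2 in hid1. HPR1, which reduces hydroxypyruvate to glycerate, stood at 348 ± 37.0 and 343 ± 30.6, and GLYK, the kinase that returns glycerate to the Calvin cycle, at 137 ± 8.48 and 152 ± 11.2. Their adjusted p lay between 0.365 (GLYK) and 0.937 (HPR1).

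In the mitochondrion, glycine decarboxylase (P-protein GLDP1 and GLDP2, T-protein GLDT, H-protein GDCH) and serine hydroxymethyltransferase (SHM1) turn glycine into serine. None of these 5 passed. GLDT, the highest and also the nearest to the threshold, was at 581, 759 and 632 RPKM in WT and 655, 846 and 798 in hid1, with hid1 replicate 1 inside the WT range (log2 fold change 0.22, SE 0.14, adjusted p = 0.331). SHM1 stood at 577.5 ± 88.8 RPKM in WT and 527 ± 87.7 in hid1, and GDCH at 270.0 ± 67.2 and 232 ± 48.7. GLDP1 stood at 366 ± 31.9 and 338 ± 48.1 RPKM, and GLDP2 at 177 ± 18.0 and 191 ± 12.7. The adjusted p of these 4 were 0.5 to 0.601.

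Shares of isoforms within a family do not depend on a scaling factor for the library, and several separated the genotypes. Quantile normalization is not such a factor, and the shares were not recomputed under it. There the log2 fold changes were 0.0 for RBCS1A, -0.345 for RBCS1B, -0.033 for RBCS2B and 0.271 for RBCS3B, so the rise in the RBCS1A share is not shown to hold. Those of GAPA1 and GAPA2 were 0.225 and -0.303. RBCS1A made up 49.5%, 49.6% and 52.4% of the summed RBCS RPKM in WT and 54.3%, 58.1% and 55.4% in hid1. Each hid1 library was higher, by 5.44 percentage points on average, and a two-sided exact permutation test gave p = 0.1, the smallest that 3 libraries against 3 can give. The share of RBCS1B was 6.39%, 6.83% and 5.58% in WT and 4.45%, 4.02% and 5.11% in hid1, all hid1 below. GAPA1 made up 50.6%, 51.6% and 49.5% of the 2 GAPA transcripts in WT and 56.8%, 59.2% and 60.7% in hid1, so the subunit's transcripts were evenly divided in WT and leaned to GAPA1 in hid1. GLDP1 made up 66.3%, 67.8% and 68.3% of the P-protein transcripts in WT and 62.5%, 63.2% and 65.7% in hid1. The shares of FBA1, CP12-1, GOX1 and PGK1 in their pairs, like those of RBCS2B and RBCS3B, overlapped between genotypes. The GAPA and GLDP pairs had coding sequences 85.8% identical. The shares other than that of RBCS1A were not tested. The RBCS shares are parts of the same sum, so a rise in one goes with a fall in others. The levels of 34.6% of all genes tested were fully separated between genotypes, and no such background was computed for shares.

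**Figure D3:**
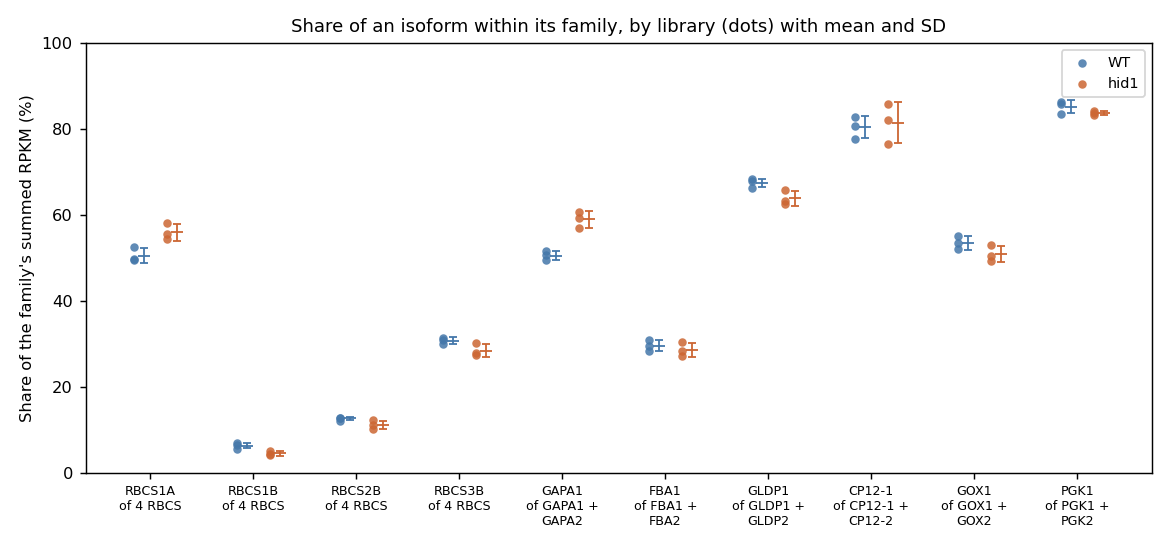
Share of an isoform in the summed RPKM of its family (percent, from 0 to 100), one dot per library, with the mean and SD of each genotype beside the dots. The genotypes separate for RBCS1A (WT 49.5% to 52.4%, hid1 54.3% to 58.1%), RBCS1B, GAPA1 and GLDP1 and overlap for the other 6. The levels of 34.6% of all genes tested also separated the genotypes.

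The 2 pathways were also set against each other within each library. Summed photorespiration RPKM divided by summed Calvin cycle RPKM other than RBCS was 0.280, 0.311 and 0.294 in WT and 0.347, 0.336 and 0.395 in hid1, higher in every hid1 library. Without AGT1 and GGT1 the ratio was 0.216, 0.244 and 0.229 in WT and 0.245, 0.248 and 0.286 in hid1. The genotypes still did not overlap, but the lowest hid1 library lay only just above the highest WT library. The sums are led by RCA and FBA2 in the Calvin cycle, and the ratio was not tested.

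The 33 transcripts varied together between libraries of a genotype. WT replicate 2 was the highest WT library for 31 of the 33, the exceptions being FBA1 and FBA2, whereas it was the highest for 39.0% of all genes tested. In hid1, replicate 1 was the lowest for 28 of the 33, against 40.8% of all genes tested. The list of 34 nuclear photosystem and light-harvesting genes, the other large group of green-tissue transcripts, held 20.9%, 18.9% and 21.5% of the summed RPKM in WT and 20.5%, 16.0% and 14.4% in hid1. The 33 held 6.99%, 8.46% and 7.06% in WT and 6.61%, 8.18% and 7.0% in hid1. WT replicate 2 thus had the highest share for the 33 and the lowest WT share for the photosystem list, and hid1 replicate 1 the lowest share for the 33 and the highest hid1 share for the photosystem list.

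Root markers moved with genotype in part. The 9 root and root hair markers summed to 205, 106 and 113 RPKM in WT and 243, 162.5 and 177.5 in hid1, none was at 0 in any library, and 3 rose (EXPA7, PRP3 and SCR) while IRT1, the root iron transporter, fell. IRT1 is part of these sums, at 50.4, 29.25 and 28.9 RPKM in WT and 4.71, 6.46 and 7.6 in hid1. The median log2 fold change of the 9 was 0.59 (0.332 with a pseudocount of 5), with 7 above 0, against 0.07 over all genes tested. Those called made up 44.4% of the 9, against 13.6% of all genes tested. In bulk seedlings, fewer green cells and less of a transcript per green cell cannot be told apart. The part of root tissue in the results above was not tested. EXPA7 stood at 4.17 ± 2.59 RPKM in WT and 11.3 ± 3.02 in hid1, PRP3 at 30.1 ± 19.8 and 74.9 ± 33.4, SCR at 14.0 ± 0.910 and 18.9 ± 1.51, and IRT1 at 36.2 ± 12.3 and 6.26 ± 1.46. The genotypes overlapped for PRP3, with WT replicate 1 (53.0 RPKM) above hid1 replicate 2 (41.9). EXPA7 missed the threshold under 3 of the 14 other settings, PRP3 under 9 and SCR under 11, with adjusted p up to 0.0739, 0.152 and 0.146. Without hid1 replicate 1 none of the 9 rose.

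**Figure D4:**
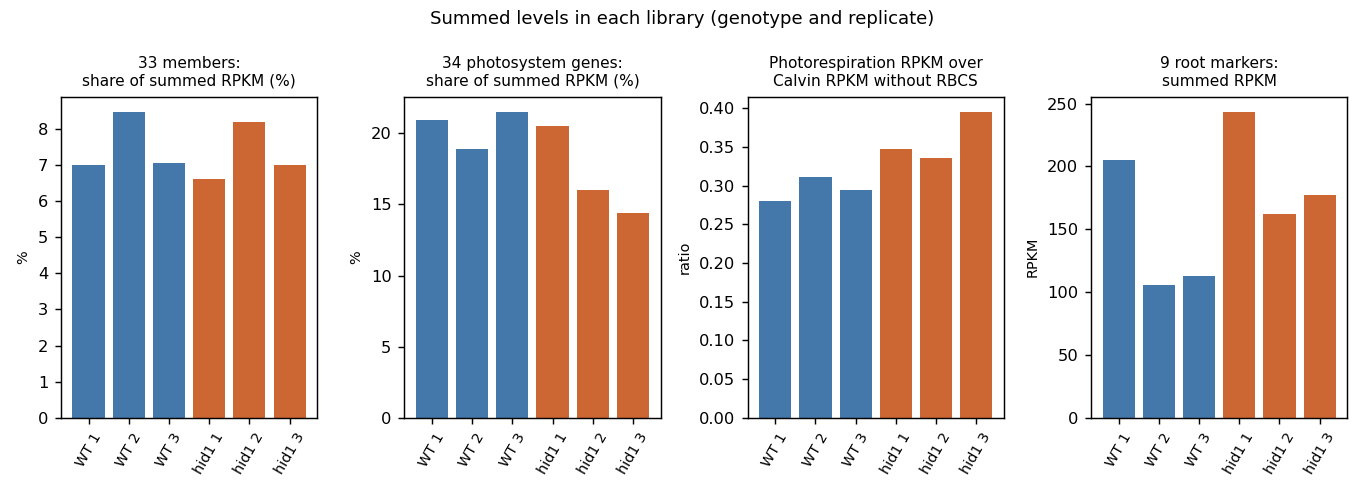
Bars of summed levels in each library, from left to right the share of the 33 transcripts in the summed RPKM (percent), the share of 34 photosystem genes (percent), the ratio of photorespiration to Calvin cycle RPKM without RBCS, and the summed RPKM of 9 root markers. The ratio is 0.280 to 0.311 in WT and 0.336 to 0.395 in hid1, whereas the share of the 33 overlaps between genotypes.

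Around the 2 pathways, 7 further gene lists were examined, and their list medians are read beside that of all genes tested. The latter was 0.07, and -0.016 with quantile normalization, -0.005 with median-ratio or trimmed-mean scaling and 0.002 with the length trend removed, so each list median under a scaling is to be read against that value. The share called was 15.4% of isoforms outside the 33, 14.3% of cytosolic counterparts and 18.2% of rubisco assembly genes. It was 12.5% for triose phosphate export, sucrose and starch and 20.6% for photosystem and light harvesting. Of all genes tested 13.6% were called, 9.41% higher and 4.21% lower. Of 13 tested isoforms of the same enzymes outside the 33, 2 rose and none fell (median 0.08; -0.005 with median-ratio and with trimmed-mean scaling). They were CP12-3, given above, and mtLPD2, a lipoamide dehydrogenase that serves as L-protein of glycine decarboxylase (46.6 ± 2.45 to 61.7 ± 3.22 RPKM, adjusted p = 0.0277). The mtLPD2 call was lost in 9 of 14 settings (up to 0.0969), among them each library left out except WT replicate 1. None of 7 genes for photorespiratory transport and ammonia recycling passed (median 0.14, 0.059 with median-ratio scaling, 0.053 with the length trend removed, and 0.086 without hid1 replicate 2 to 0.214 without WT replicate 2). The plastid glutamine synthetase GS2, which recaptures photorespiratory ammonia, stood at 1169 ± 124 and 1378 ± 146.5 RPKM (adjusted p = 0.268), and the transporter gene DiT1 at 431 ± 26.4 and 479 ± 74.3 (0.505).

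Of 14 cytosolic counterparts in glycolysis and pentose phosphate metabolism, 2 aldolase genes fell and none rose (median 0.02, and -0.06 to -0.04 under the 4 scaling alternatives). FBA5 went from 66.1 ± 3.45 to 40.9 ± 11.1 RPKM (log2 fold change -0.71, SE 0.16, adjusted p = 0.0174) and FBA7 from 28.8 ± 2.3 to 21.98 ± 0.837 (-0.37, SE 0.11, adjusted p = 0.0475). Neither passed with no filter on low values or without WT replicate 3, hid1 replicate 1 or hid1 replicate 2, and FBA7 also missed without WT replicate 2 or hid1 replicate 3 (adjusted p up to 0.0705 for FBA5 and 0.183 for FBA7). FBA5 and FBA7 are distinct genes from the chloroplast FBA1 and FBA2 described above.

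Of 11 rubisco assembly genes, 2 fell and none rose, and the median was -0.40 (-0.20 without WT replicate 2). CPN60B2, a subunit of the chloroplast chaperonin that folds the rubisco large subunit, fell from 114 ± 17.0 to 70.4 ± 15.2 RPKM (log2 fold change -0.70, SE 0.16, adjusted p = 0.0173). None of the 11 passed with no filter on low values or without WT replicate 2, hid1 replicate 1 or hid1 replicate 2 (adjusted p up to 0.0664 for CPN60B2), whereas 6 fell without WT replicate 1.

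Of 9 genes of thioredoxin regulation, which activates CFBP1 and SBPASE proteins in light, none passed (median -0.02). Under other settings 2 fell with quantile normalization, and 1 fell with median-ratio or trimmed-mean scaling, the length trend removed, the replicate block or WT replicate 1 left out. The median was -0.101 with median-ratio scaling, -0.13 without WT replicate 1 and 0.045 without hid1 replicate 1. The highest of the list were m-type thioredoxins (TRXM4 at 375 ± 23.1 and 374.6 ± 39.2 RPKM, TRXM1 at 321 ± 25.4 and 285.5 ± 30.4). TRXF1 and TRXF2, 22.2% of the list, had all hid1 libraries below WT, against 11.4% of all genes tested. Their log2 fold changes were -0.38 and -0.30 (limma adjusted p = 0.0513 and 0.0811). FTRA2, 11.1% of the list, had all hid1 libraries above WT (0.23, adjusted p = 0.154), against 23.1% of all genes tested. Of 8 genes of triose phosphate export, sucrose and starch, SPS2F, a sucrose phosphate synthase, rose from 2.55 ± 0.446 to 4.46 ± 0.579 RPKM (adjusted p = 0.0278; up to 0.105 and not passed with no filter or when WT replicate 2, WT replicate 3, hid1 replicate 1 or hid1 replicate 3 was left out) and the other 7 did not pass (median -0.09, -0.173 with median-ratio scaling, and -0.041 without hid1 replicate 1 to -0.18 without hid1 replicate 3, where 1 gene fell). Of the 34 photosystem and light-harvesting genes, 7 fell and none rose, with a median of -0.40 and all 34 below 0 (28 with quantile normalization, 33 without hid1 replicate 2 or 3). That median was -0.18 with quantile normalization and -0.483 with median-ratio scaling. With 1 library left out it ran from -0.507 (without hid1 replicate 1) to -0.266 (without hid1 replicate 3). The number that fell was 3 with WT replicate 2, WT replicate 3, hid1 replicate 2 or hid1 replicate 3 left out, 4 without WT replicate 1, 10 without hid1 replicate 1, 3 with no filter on low values, with median-ratio or trimmed-mean scaling or with the length trend removed, and 14 with the replicate block. PSBQ2 and PSBO2 of the oxygen-evolving complex fell to 0.656-fold (adjusted p = 0.00747) and 0.675-fold (0.0105), LHCB2.3 to 0.387-fold (0.00436) and LHCB1.2 to 0.588-fold (0.0386, lost in 9 of 14 settings, up to 0.248). LHCB1.1, LHCB1.3, LHCB1.4 and LHCB1.5 did not pass (limma adjusted p = 0.254, 0.903, 0.318 and 0.392). LHCB1.3, the highest of the list, stood at 31894 ± 2185.7 RPKM in WT and 31226 ± 6894.8 in hid1. How reads were divided among the LHCB1 copies was not examined. The difference between the photosystem list and the 33 was not tested.

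**Figure D5:**
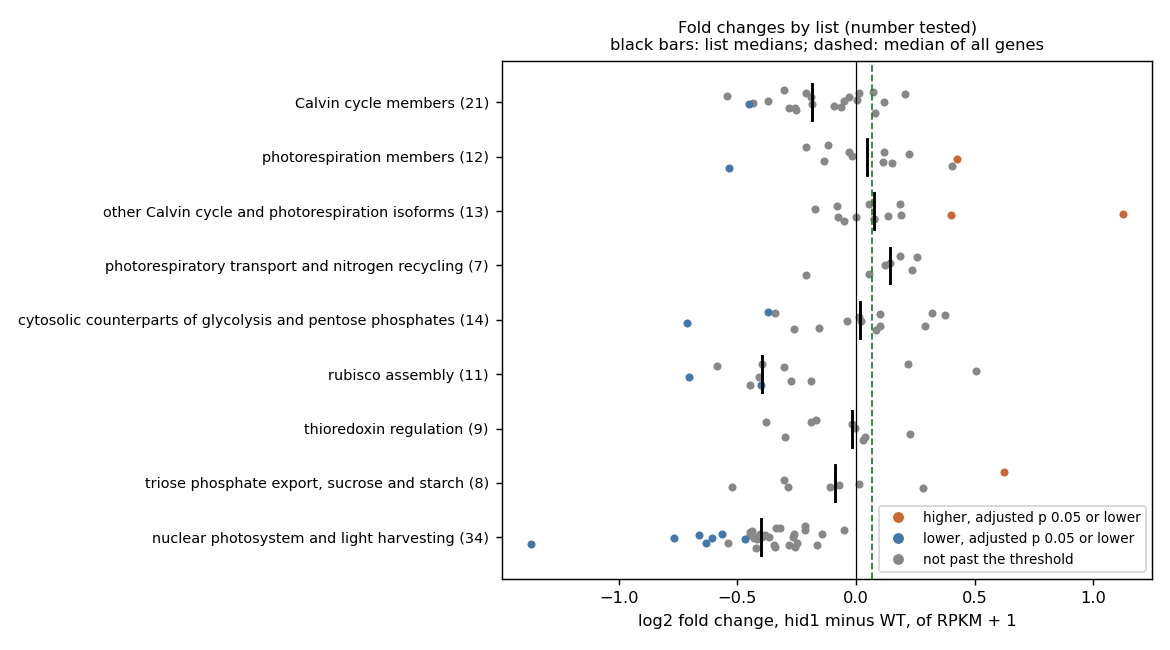
Log2 fold change (hid1 minus WT, of RPKM + 1) of each tested gene, by list with the number tested in brackets; black bars are list medians and the dashed line is the median of all genes tested. Calvin cycle transcripts have a median of -0.19, photorespiration transcripts 0.05, and the rubisco assembly and photosystem lists -0.40 each.

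The promoters of the 33 were compared with those of 26711 protein-coding genes. In the 250 bases before the gene start, CACGTG was found in 5 of the 33 (6.58% of all genes), GATAAG in 5 (12.2%), the evening element in 0 (4.84%) and CCAAT in 21 (46.1%), counting both strands. The 5 with CACGTG were RBCS2B, CFBP1, PRK and the photorespiration genes GGT1 and GLDP1. The 5 with GATAAG were RBCS2B, RCA, CFBP1, CP12-2 and the photorespiration gene GLDP2. In the 500 bases before the start codon, a window that includes the untranslated leader, CACGTG was found in 10 of the 33 (9.45% of all genes) and GATAAG in 16 (23.5%). All 16 genes with GATAAG in that window, and 9 of the 10 with CACGTG, were Calvin cycle genes, GLDP1 being the exception. Where the leader is long the window misses sites before the gene start. The CACGTG of PRK and GGT1, at 173 and 82 bases before the gene start, lay outside it. The GATAAG matches of PRK lay inside the annotated gene. The part of leader length in this division was not tested. In the same window the evening element was found in TKL1 (8.32% of all genes) and CCAAT in 27 genes (68.0%). The matches were not tested and say nothing of binding.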

How the data were processed

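RPKM values for 6 libraries were deposited by the authors, per the file headers, with 1 library per table. Reads were mapped to TAIR10 with TopHat2 2.0.9 and Cuffdiff 2.0.0 is listed, per the submitters' processing notes. The sources used here give no counter, annotation, RPKM denominator or use of strand.

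Genes whose mean reached 1 RPKM in WT or in hid1 were kept. A linear model with genotype alone was fitted to log2(RPKM + 1), using limma 3.58.1 under R 4.3.3 and moderated variances that follow the mean level. All 33 members passed that filter. P-values were adjusted by Benjamini-Hochberg over all genes tested. The fit was tested on simulated data. That the replicates came from separate cultures rests on the labels' word biological.

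Members, lists and rules were chosen with earlier results of these data known. All members are accounted for. Values in every library are given for members past the threshold, for the highest of each of 6 role groups and, where none passed, for the nearest by adjusted p. From other lists up to 4 called genes are named, or the 2 highest where none passed. AT5G36790, TRXF1, TRXF2, FTRA2 and the LHCB1 genes other than LHCB1.2 were named after their values were seen. The values of 1 called gene of the rubisco assembly list are not reported here. Positions, coding sequences and promoters come from RefSeq TAIR10.1 (32835 of 33323 IDs matched) through gene IDs, with no comparison against the authors' annotation. The name table pairs 0 IDs with HID1, so that gene was not analysed here. Coding sequences were aligned globally with Biopython 1.88. Depth is an approximation that treats the commonest small product of RPKM and exon length as 1 read.

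Alternatives were pseudocounts of 0.1 and 5, no filter, quantile, median-ratio and trimmed-mean scaling, removal of a length trend, the replicate number as a block, and each library left out. The ratio of photorespiration to Calvin cycle RPKM was not part of the written design. Its version without AGT1 and GGT1 and the window of 500 bases were added after seeing the data. Tables were handled with Python 3.11.15 and pandas 2.3.3.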

Additional observations from a re-analysis of the deposited data

How the results depend on the processing

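The numbers of genes called lower moved with scaling and filter, from 794 to 492 with no filter, 1343 with quantile normalization, 1236 with median-ratio scaling and 1232 with trimmed-mean scaling. Of the 33, 1 was called with no filter (0 higher, 1 lower). With median-ratio scaling, trimmed-mean scaling or the length trend removed, 0 were called higher and 4 lower (CFBP1, PGLP1, FBA1 and RBCS1B). The replicate block gave 7 calls among the 33 (2 higher, 5 lower), adding GGT1, FBA1, FBA2 and RBCS1B, and 1251 lower calls among all genes. The numbers are not shown to pair the libraries: deviations of same-numbered libraries correlated at 0.315, 0.061 and 0.105, and WT replicate 2 correlated best with hid1 replicate 3 (0.255). With 1 library left out, the calls were 1430 to 3260 over all genes (1021 to 2289 higher, 395 to 971 lower) and 0 to 3 over the 33 (0 to 1 higher, 0 to 2 lower), the median of the 33 was -0.109 to -0.001, and the difference in the share of RBCS1A was 4.34 to 6.39 percentage points.

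No called gene among the 33 changed sign. The sign was also followed for the uncalled members and, outside the 33, for the uncalled genes GS2, DiT1, TRXM1 and TRXM4. It changed for those given next. Other uncalled genes of the lists were not followed singly, and of the 34 photosystem genes 28 were below 0 with quantile normalization. With quantile normalization the log2 fold change was 0.271 for RBCS3B, 0.078 for RCA, 0.022 for RPE, 0.019 for HPR1 and 0.013 for TRXM4. With median-ratio scaling it was -0.01 for RBCS1A, -0.068 for GAPB, -0.08 for pdTPI and -0.004 for TKL1, and with trimmed-mean scaling -0.009, -0.068, -0.08 and -0.003. With the length trend removed it was -0.061 for GAPB, -0.061 for pdTPI and -0.011 for TKL1. With 1 library left out it ranged from -0.079 to 0.16 for RBCS1A, -0.123 to 0.034 for PGK1, -0.106 to 0.145 for GAPB, -0.097 to 0.095 for pdTPI, -0.033 to 0.185 for TKL1, -0.17 to 0.093 for RPE, -0.109 to 0.05 for GOX1, -0.086 to 0.063 for HPR1 and -0.086 to 0.058 for TRXM4. The causes were not tested.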
